A study of Saccharomyces cerevisiae with 18 samples.

Results

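The expression profile of yeast whose only Spn1 carries the K192N substitution (*spn1 K192N*) was compared with that of yeast expressing wild-type Spn1 (WT). All RNA-seq libraries labelled with either genotype were taken, which gives 6 of the 9 RNA-seq libraries and 6 of the 18 samples of the series, with 3 cultures per genotype. The other RNA-seq libraries come from a truncated allele, *spn1 141-305*, and entered only the estimate of the spread between cultures. Poly-A enriched RNA was sequenced from exponentially growing cells in rich glucose medium (YPD), with a fixed proportion of fission yeast (*S. pombe*) cells mixed in as a spike-in. In all strains the chromosomal *SPN1* gene was replaced by *LEU2*, and Spn1 was supplied from a centromeric *HIS3* plasmid under its native promoter and terminator with a myc tag at its amino terminus, in a MATa his3 leu2 met15 ura3 (BY4741) background. This is the description of the study's methods. The sample labels give the *spn1 K192N* libraries as an spn1 deletion with the K192N plasmid, but give the WT libraries only the markers of the parental strain, and they list a different BY strain number for each of the 9 libraries. Each value is on the rlog scale, a regularized log2 scale that the authors computed after scaling each library on its *S. pombe* reads. This scale draws differences toward 0, most of all for weakly expressed genes, so that each change given here is smaller than the ratio of the underlying counts. Counts were not used here, the depth of the libraries is unknown, and p-values measure the spread between these cultures.

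Spn1, the yeast counterpart of human IWS1, is an essential histone chaperone that travels with RNA polymerase II and binds the elongation factor Spt6. The lysine replaced in K192N lies in its conserved core, and the K192N protein is known to bind RNA polymerase II and Spt6 less well while the cells remain viable. In yeast the phosphate (PHO) regulon, a group of genes switched on by the transcription factor Pho4 when phosphate is short, has long served as a model for how promoter nucleosomes limit transcription, and acid phosphatase genes such as *PHO5* are its classical members.

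The codon changed in the mutant is shown first, since it is the only designed difference between the groups. It lies at chrXVI:796635-796637 on the minus strand of the R64 reference assembly, within the single coding exon of *SPN1* (YPR133C, chrXVI:795978-797210, 410 codons). The reference sequence from codon 187 to codon 197 reads as follows, with the lysine codon that K192N replaces in capitals.
SPN1: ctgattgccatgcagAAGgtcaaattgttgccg

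*SPN1* transcript was at 12.27, 12.95 and 11.66 in WT replicates 1 to 3 and at 13.62, 12.55 and 12.28 in *spn1 K192N* replicates 1 to 3 (rlog). The groups overlapped, and replicate 1 of *spn1 K192N* was the highest of the 6 libraries (log2 fold change 0.52 ± 0.24, SE; adjusted p = 0.192). *HIS3*, the selectable marker of the plasmid, was at 13.54, 14.32 and 12.97 in WT and at 14.89, 13.71 and 13.41 in *spn1 K192N*, and its libraries followed the same order as those of *SPN1* within each group. *LEU2*, which marks the deletion of chromosomal *SPN1*, lay between 11.16 and 11.41 in all 6 libraries. *URA3* and *MET17* (also called *MET15*), deleted in the parental strain, were listed at 0 throughout. These genes check the strain background but cannot tell the WT allele from K192N, and the part of the *SPN1* level in any difference below was not tested.

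Among markers of MATa cells, transcripts were abundant for the receptor gene *STE2* (14.53 to 14.66), the a-factor exporter *STE6* (12.26 to 12.57) and the protease gene *BAR1* (12.04 to 12.38). The pheromone genes *MFA1* and *MFA2* were listed at 0 in every library. The a-specific *ASG7* (6.72 to 6.85) and *AGA2* (7.55 to 7.82) were low. Of the alpha-specific genes, *STE3* lay between 6.60 and 6.75 and *MFALPHA2* between 5.23 and 5.34. The alpha-specific *SAG1* went the other way, at 9.81 to 10.01, above *ASG7* and *AGA2* in all 6 libraries. The meiotic genes *IME1* and *IME2* lay between 6.58 and 7.35. The matrix lists 6577 genes, of which 216 were at 0 in all libraries and 407 fell under the filter on low values, a mean rlog of at least log2(10). The remaining 5954 genes were tested with limma, and a call needed an adjusted p (Benjamini-Hochberg) below 0.05.

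On the scale as deposited, 286 genes were lower in *spn1 K192N* (4.80% of those tested) and 24 were higher (0.403%). The median change over all tested genes was −0.08, and 83.6% of them lay below 0. Most called changes were small. The lower genes had a median of −0.29, 33 of them fell by more than 0.5 and 4 by more than 1, while the higher genes had a median of 0.31 and 3 rose by more than 1. The 3 *spn1 K192N* libraries lay entirely below the 3 WT libraries in 257 of the 286 lower genes and entirely above them in 22 of the 24 higher genes, whereas over all tested genes 18.8% lay entirely below and 1.44% entirely above. A median gene stood 0.05 above, 0.01 below and 0.04 below the WT mean in WT replicates 1 to 3, at the WT mean in *spn1 K192N* replicate 1, and 0.11 and 0.12 below it in replicates 2 and 3. The libraries' median levels differed by −0.08 between the groups (two-sided exact permutation test, p = 0.3, where the smallest p that 3 against 3 libraries allow is 0.1). In bulk RNA scaled on cells added at a fixed ratio, an error in that ratio and less RNA per *S. cerevisiae* cell cannot be told apart. Leaving out WT replicate 1, the library with the highest median, reduced the calls to 50 lower and 12 higher genes, all 50 of which were among the 286. A core of 49 lower and 9 higher genes was called whichever of the 6 libraries was left out.

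The most coherent group of falls was the PHO regulon. Of 17 target genes, 13 fell (76.5%, beside 4.80% of all tested genes), none rose and 4 did not pass the test. The median of the list was −0.63, beside −0.08 over all tested genes. Their promoters are shown because they share the sequence that Pho4 binds. Each stretch is read 5′ to 3′ toward the start codon from the R64 assembly, and capitals mark CACGTG, the core of the Pho4 site, or its weaker form CACGTT on either strand (AACGTG when read on the printed strand). All lie on the minus strand, at chrXIII:26050-26250 for *PHO84*, chrII:431186-431326 for *PHO5*, chrII:798832-798997 for *PHO89*, chrXVI:517283-517373 for *VTC3* and chrX:413499-413539 for *VTC4*.
PHO84: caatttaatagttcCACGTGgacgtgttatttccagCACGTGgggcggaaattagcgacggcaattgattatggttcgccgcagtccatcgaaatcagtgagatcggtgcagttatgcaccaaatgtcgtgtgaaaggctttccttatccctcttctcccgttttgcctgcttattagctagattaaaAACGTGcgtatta
PHO5: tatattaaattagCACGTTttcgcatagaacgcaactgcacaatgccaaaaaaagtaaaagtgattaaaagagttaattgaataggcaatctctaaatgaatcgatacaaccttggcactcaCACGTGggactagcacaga
PHO89: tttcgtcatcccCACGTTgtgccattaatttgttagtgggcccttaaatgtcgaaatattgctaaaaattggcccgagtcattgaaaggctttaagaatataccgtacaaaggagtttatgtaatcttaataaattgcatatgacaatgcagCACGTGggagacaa
VTC3: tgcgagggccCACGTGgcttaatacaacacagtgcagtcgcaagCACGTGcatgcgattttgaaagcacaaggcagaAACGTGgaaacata
VTC4: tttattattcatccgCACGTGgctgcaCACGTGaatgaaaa

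CACGTG occurred in the 500 bases before the start codon in 14 of the 17 targets (82.4%), against 6.23% of the 6006 protein-coding genes with a full window. Among the 13 targets that fell it was found in 12, and the remaining gene, *PHO8*, held the weaker form. Of the 4 that did not pass the test, 2 held CACGTG and 3 held either form. The list was drawn up as targets of Pho4, so that the high share in it is partly set by that choice. Outside the PHO targets, 24 of the 261 windows of lower genes held CACGTG (9.20%). A match describes the sequence and not occupancy by Pho4, which was not measured.

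The high-affinity phosphate transporters were among the largest falls. *PHO89* (YBR296C, chrII:796798-798522), a sodium-coupled phosphate transporter, was at 11.71, 11.58 and 11.00 in the WT libraries and at 9.22, 8.75 and 8.54 in the *spn1 K192N* libraries. Every mutant library thus lay below every WT library, and the change was −2.59 ± 0.13 (SE; adjusted p = 4.13e-14), or 6.02-fold lower. *PHO84* (YML123C, chrXIII:24037-25800), the main proton-coupled phosphate transporter, was at 15.67, 15.68 and 15.54 in WT and at 14.83, 14.30 and 14.09 in *spn1 K192N*. The groups did not overlap, and replicate 1 was the least reduced of the mutant libraries (−1.23 ± 0.12, SE; adjusted p = 7.99e-08).

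The secreted acid phosphatases fell as a group. *PHO5* (YBR093C, chrII:429548-430951), which encodes the major repressible enzyme, was at 13.10, 13.46 and 12.94 in WT and at 12.36, 11.75 and 11.65 in *spn1 K192N* (−1.25 ± 0.13, SE; adjusted p = 3.52e-07). *PHO11* and *PHO12* are near-identical copies at the ends of chromosomes I and VIII, whose reads cannot be fully separated, and fell by 0.91 and 0.93. *PHO3*, the neighbour of *PHO5* in tandem on chromosome II, encodes the constitutive acid phosphatase, which is repressed by thiamine rather than phosphate. It moved the opposite way, from 14.48, 14.67 and 14.38 in WT to 15.07, 14.81 and 14.76 in *spn1 K192N* (0.37 ± 0.10, SE; adjusted p = 0.0259), again without overlap, but was not called without WT replicate 1 (adjusted p = 0.196) or without WT replicate 3.

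The polyphosphate synthase of the vacuole followed the transporters. Its subunit *VTC3* fell by 0.90, from 12.79, 12.73 and 12.55 in WT to 12.04, 11.75 and 11.56 in *spn1 K192N*, and the subunits *VTC4*, *VTC1* and *VTC2* fell by 0.68, 0.63 and 0.42. *PHO81*, the inhibitor of the Pho80-Pho85 kinase and itself a Pho4 target, fell by 0.71, from 11.10, 11.11 and 10.99 to 10.63, 10.27 and 10.18. The vacuolar alkaline phosphatase *PHO8* fell by 0.52, *SPL2*, which restrains low-affinity uptake, by 0.35, and *PHM6*, of unknown function, by 0.16. In each of these genes the 3 mutant libraries lay below all WT libraries. *PHO86*, which *PHO84* needs to leave the endoplasmic reticulum, missed the threshold (−0.28 ± 0.09, SE; adjusted p = 0.053), as did the phosphatase gene *PHM8* (−0.17), *GDE1* (−0.06) and *GIT1* (−0.04), which hydrolyse and take up glycerophosphodiesters.

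**Figure D1:**
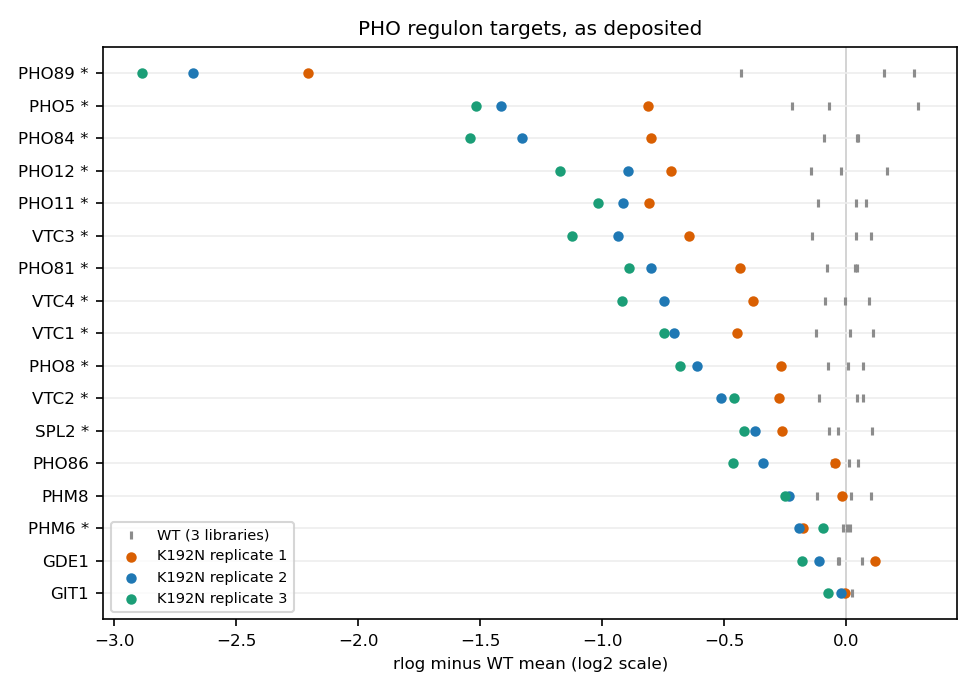
Level of the 17 PHO regulon targets in each library, as rlog minus the WT mean on a log2 scale, with grey ticks for the 3 WT libraries, coloured points for the 3 *spn1 K192N* libraries and an asterisk for a call at adjusted p below 0.05. *PHO89* lies farthest to the left, and replicate 1 (orange) is the highest mutant library in 16 of the 17 genes.

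The regulators of the pathway changed less. Of 15 genes of phosphate signalling and low-affinity uptake, 2 fell (13.3%, beside 4.80% of all tested genes) and none rose, with a median of −0.15. *PPN2*, a vacuolar polyphosphatase, fell by 0.55 and *VIP1*, an inositol pyrophosphate synthase, by 0.32. *PHO4* itself was at 8.93, 8.80 and 8.88 in WT and 8.81, 8.62 and 8.65 in *spn1 K192N* (−0.18, adjusted p = 0.113), its partner *PHO2* differed by 0.03, the kinase gene *PHO85* by −0.15 and the cyclin gene *PHO80* by −0.09. None of these passed the test. With each library left out in turn, 12 to 15 of the 17 targets and 1 to 10 of the 15 regulators were lower. The highest counts, 15 (88.2%) and 10 (66.7%), came without *spn1 K192N* replicate 1, where 34.1% of all tested genes were lower.

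The list for sodium, potassium and proton transport, which also holds calcium pumps and regulators, had a median of −0.13. Among 17 tested genes it had 5 falls and 1 rise (29.4% and 5.88%, beside 4.80% and 0.403% of all tested genes). *ENA1*, *ENA2* and *ENA5* are near-identical sodium pump genes in tandem on chromosome IV, and reads can be divided among them in more than 1 way. *ENA2* (chrIV:531307-534582) was at 12.54, 12.45 and 12.35 in WT and 11.69, 11.49 and 11.37 in *spn1 K192N*, a fall of 0.93. *ENA5* (chrIV:527422-530697) was at 8.16, 8.15 and 8.16 in WT and at 11.39, 11.10 and 11.24 in *spn1 K192N*, the largest rise of the comparison (3.09 ± 0.08, SE; adjusted p = 2.61e-22). Taken back to the linear scale and summed, *ENA2* and *ENA5* came to 6249, 5881 and 5514 in WT and 5986, 5072 and 5068 in *spn1 K192N*, so that replicate 1 lay inside the WT range and replicates 2 and 3 below it. Each copy alone thus separated the genotypes, while their sum did not. The sum rests on rlog values, which are drawn together most in weakly expressed genes, so that it is not a sum of reads. The WT values of *ENA5* had an SD of 0.004, beside 0.079 in *PIR3* and 0.013 in *AGP2* at similar WT levels. The number of reads behind the WT values of *ENA5* is unknown. The number of *ENA* copies in each strain was not measured, so that a difference between the strains in this tandem array cannot be told apart from one in expression. *ENA1* fell by 0.33, the vacuolar calcium pump *PMC1* by 0.39, the potassium transporter *TRK1* by 0.30 and the Golgi potassium antiporter *KHA1* by 0.62. *KHA1* was at 11.52, 11.35 and 11.30 in WT and at 11.12, 10.61 and 10.59 in *spn1 K192N*. Without WT replicate 1 only *ENA2* and *KHA1* of the list were lower. Without *spn1 K192N* replicate 1 the falls numbered 10 (58.8%, beside 34.1% of all tested genes).

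Nutrient uptake and sulfur metabolism supplied several of the largest remaining falls. *HXT2* (YMR011W, chrXIII:288079-289704), a high-affinity glucose transporter, was at 13.10, 13.06 and 12.58 in WT and 12.23, 11.74 and 11.66 in *spn1 K192N* (−1.04 ± 0.12, SE; adjusted p = 1.28e-06). It was the only member called among 20 genes of hexose transport (5%, beside 4.80% of all tested genes), and the list median was −0.08. *MET6*, the methionine synthase, was at 11.53, 11.16 and 11.13 in WT and 10.72, 10.40 and 10.52 in *spn1 K192N*. Its fall of 0.73 went with falls of the S-adenosylmethionine synthetases *SAM1* (by 0.36) and *SAM2* (by 0.42), the transporter *SAM3* (by 0.36) and the activator *MET4* (by 0.24). With *MET6* these were 5 of the 27 sulfur genes (18.5%, beside 4.80% of all tested genes), and the list median was −0.09. Among 22 genes of amino acid uptake 4 fell (18.2%), namely *GNP1*, *BAP2*, *LYP1* and *AGP2* of the permease family, by 0.32 to 0.36, and the list median was −0.14. Without WT replicate 1 only 2 of the sulfur genes, *MET6* and *SAM3*, and 1 of the uptake genes, *AGP2*, were lower. Without *spn1 K192N* replicate 1 the falls numbered 14 and 12 (51.9% and 54.5%, beside 34.1% of all tested genes).

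Of 31 genes of iron and copper uptake, 9 fell (29.0%, beside 4.80% of all tested genes) and none rose, with a median of −0.15. The high-affinity iron permease *FTR1* was at 11.96, 11.92 and 11.78 in WT and 11.61, 11.53 and 11.03 in *spn1 K192N*, a fall of 0.49, and its partner oxidase *FET3* fell by 0.44 with the same ordering of libraries. The siderophore transporters *SIT1* and *ENB1* fell by 0.39 and 0.35, and *AFT1*, the iron-responsive activator of these genes, by 0.28. Replicate 3 was the lowest mutant library in each of these 5 genes. Without WT replicate 1 only *TIS11*, a factor in mRNA decay under iron shortage, kept its call, so that the count dropped from 9 to 1. Without *spn1 K192N* replicate 1 the count rose to 17 (54.8%, beside 34.1% of all tested genes).

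The cell wall list had 8 lower and 2 higher genes of 36 (22.2% and 5.56%, beside 4.80% and 0.403% of all tested genes) and a median of −0.12. *GSC2*, the stress-induced subunit of glucan synthase, was at 13.35, 13.07 and 13.03 in WT and at 12.91, 12.26 and 12.36 in *spn1 K192N* (−0.64 ± 0.12, SE; adjusted p = 0.000841). *EGT2*, *SCW11*, *CTS1*, *DSE2* and *SUN4* act in the separation of daughter from mother cells, *PIR1* is a structural wall protein and *CHS1* is a chitin synthase that repairs the septum, and these also fell. *EGT2* was at 13.64, 13.28 and 13.63 in WT and 12.76, 12.87 and 12.94 in *spn1 K192N*. In *EGT2* and *SCW11*, as in *PIR1* and *CTS1*, replicate 1 was the lowest mutant library, unlike in the PHO genes. *PIR3* and *CWP1*, which encode structural proteins of the wall, rose by 0.48 and 0.31. Both rises and 2 of the 8 falls, *EGT2* and *SCW11*, were called without WT replicate 1. Without *spn1 K192N* replicate 1 the falls numbered 21 (58.3%, beside 34.1% of all tested genes).

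Other genes among the 15 largest falls lie outside the lists. *CMK2*, a calmodulin-dependent kinase, was at 10.89, 10.63 and 10.46 in WT and 10.27, 9.48 and 9.57 in *spn1 K192N*, and the surface protease *YPS1* was at 12.90, 12.75 and 12.63 against 12.47, 11.81 and 12.01. *BSC1* and *PRM7*, adjacent on chromosome IV, fell by 0.85 and 0.80. In all, 73 of the 286 lower genes and 13 of the 24 higher genes belonged to a list.

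**Figure D2:**
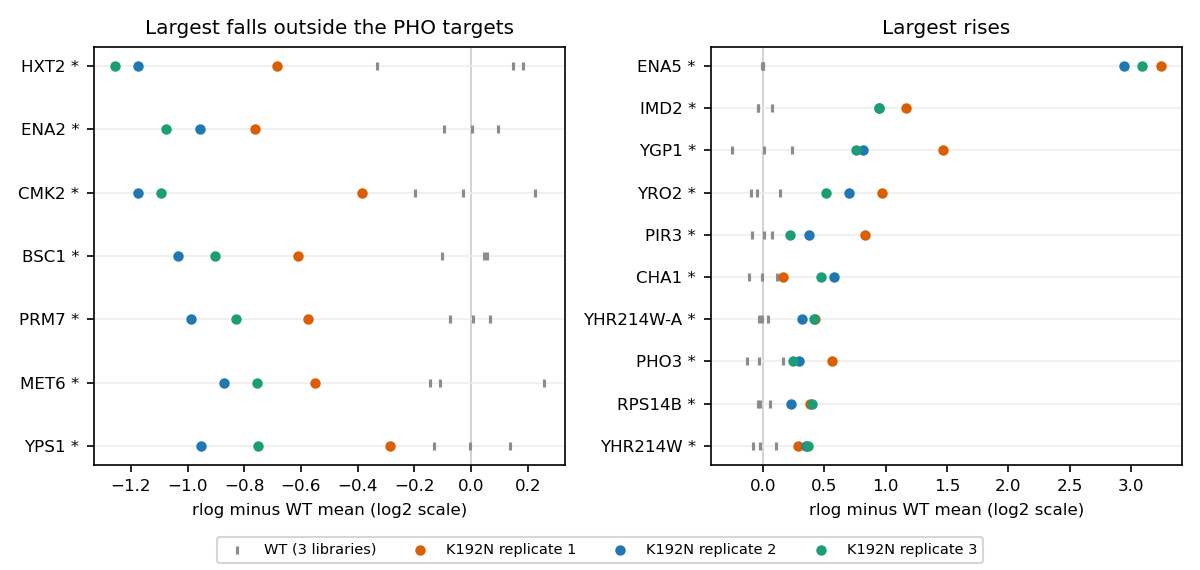
The largest falls outside the PHO targets (left) and the 10 largest rises (right) among called genes without overlap, as rlog minus the WT mean on a log2 scale, with grey ticks for WT and coloured points for *spn1 K192N* libraries. Replicate 1 (orange) is nearest to WT in all 7 falls shown, while it is the highest library in *ENA5*, *IMD2*, *YGP1*, *YRO2*, *PIR3*, *YHR214W-A* and *PHO3*.

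Rises were few, and their members had no common list. *IMD2* (YHR216W, chrVIII:554396-555967), an IMP dehydrogenase of guanine nucleotide synthesis whose transcription is set by the choice of its start site, was at 12.00, 12.00 and 12.12 in WT and at 13.21, 12.99 and 12.98 in *spn1 K192N* (1.02 ± 0.08, SE; adjusted p = 1.30e-09). Its paralogs *IMD3* and *IMD4* differed by −0.10 and −0.04 and were not called. *IMD2* lies at the right end of chromosome VIII next to *PHO12*, which fell, and the short reading frames *YHR214W-A* and *YHR214W* nearby rose by 0.39 and 0.33.

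*YGP1* (YNL160W, chrXIV:336545-337609), a secreted glycoprotein made when nutrients run low, was at 13.39, 13.62 and 13.13 in WT and at 14.85, 14.20 and 14.14 in *spn1 K192N* (1.02 ± 0.13, SE; adjusted p = 8.64e-06). *YRO2*, a membrane protein related to the heat shock protein Hsp30, was at 10.69, 10.88 and 10.65 against 11.71, 11.44 and 11.26. Both stood highest in replicate 1. They were the only rises among 27 genes of the general stress response, where *PNC1* and *TFS1* fell by 0.21 and 0.20 and the median was 0.00. Rises and falls were 7.41% each of the list, beside 0.403% and 4.80% of all tested genes. The rises of *YGP1* and *YRO2* were called without WT replicate 1 and the falls of *PNC1* and *TFS1* were not.

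*SER3*, the first enzyme of serine synthesis, is repressed in rich medium by transcription of the upstream noncoding RNA *SRG1*, a process known to need Spt6. *SER3* was at 11.99, 11.48 and 12.09 in WT and 11.94, 12.49 and 12.66 in *spn1 K192N*. It was called (0.51 ± 0.14, SE; adjusted p = 0.0243), but replicate 1 lay inside the WT range and replicates 2 and 3 above it. *SRG1* was at 8.70, 8.65 and 8.66 in WT and at 8.24, 8.48 and 8.49 in *spn1 K192N*, with no overlap. Replicate 1 was thus lowest in *SRG1*, while the rise of *SER3* came from replicates 2 and 3. Whether the level of *SER3* followed from that of *SRG1* was not tested. *CHA1*, which breaks serine and threonine down, rose by 0.41. The ribosomal protein gene *RPS14B* rose by 0.34 and *RPS9A* fell by 0.49, each a copy of a duplicated gene. They were the only calls among 135 cytosolic ribosomal protein genes. Rises and falls were 0.741% each of this list, beside 0.403% and 4.80% of all tested genes. Without WT replicate 1, *SER3* (adjusted p = 0.120), *SRG1*, *CHA1* and *RPS14B* were not called, and *SER3* also lost its call without WT replicate 2 and without replicate 2 or 3 of *spn1 K192N*.

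Most groups of growth and housekeeping genes held few calls. The small subunit processome and the large subunit assembly factors, which make ribosomes, had medians of −0.14 and −0.12. Each had 1 lower gene, *UTP20* of 56 and *RSA4* of 67 (1.79% and 1.49%, beside 4.80% of all tested genes). Their *spn1 K192N* library medians were −0.05, −0.19 and −0.21 for the processome and −0.02, −0.15 and −0.17 for the large subunit factors. The PAC motif GATGAG was present in the window of 89.3% and 89.6% of these genes, on either strand, against 28.2% of the windows of all protein-coding genes. Without replicate 1 of *spn1 K192N*, 33 and 32 of these genes were lower (58.9% and 47.8%), in a fit where 34.1% of all tested genes were lower, and without WT replicate 1 none was.

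Glycolysis and fermentation had a median of −0.17 with 1 fall, the hexokinase *HXK2* (by 0.38), and 2 rises, the pyruvate decarboxylases *PDC5* (0.24) and *PDC6* (0.12). Of its 23 genes this was 4.35% lower and 8.70% higher, beside 4.80% and 0.403% of all tested genes. Among the transcription elongation factors, 1 of 26 genes fell (3.85%, beside 4.80% of all tested genes), the remodeler *CHD1* (by 0.26). *SPT6* stood at 12.00, 11.86 and 11.85 in WT and 11.91, 11.71 and 11.72 in *spn1 K192N* (−0.12, adjusted p = 0.336). None of the 10 histone genes and none of the 12 RNA polymerase II subunits was called, with medians of −0.13 and −0.06. With 4.80% of all tested genes lower, lists of this size can lack a call without standing apart from the rest. In 9 of the 40 lists no gene was called as deposited. Without WT replicate 1 no gene of glycolysis and fermentation or of elongation was called. Without *spn1 K192N* replicate 1 the falls numbered 16 and 7 (69.6% and 26.9%, beside 34.1% of all tested genes).

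**Figure D3:**
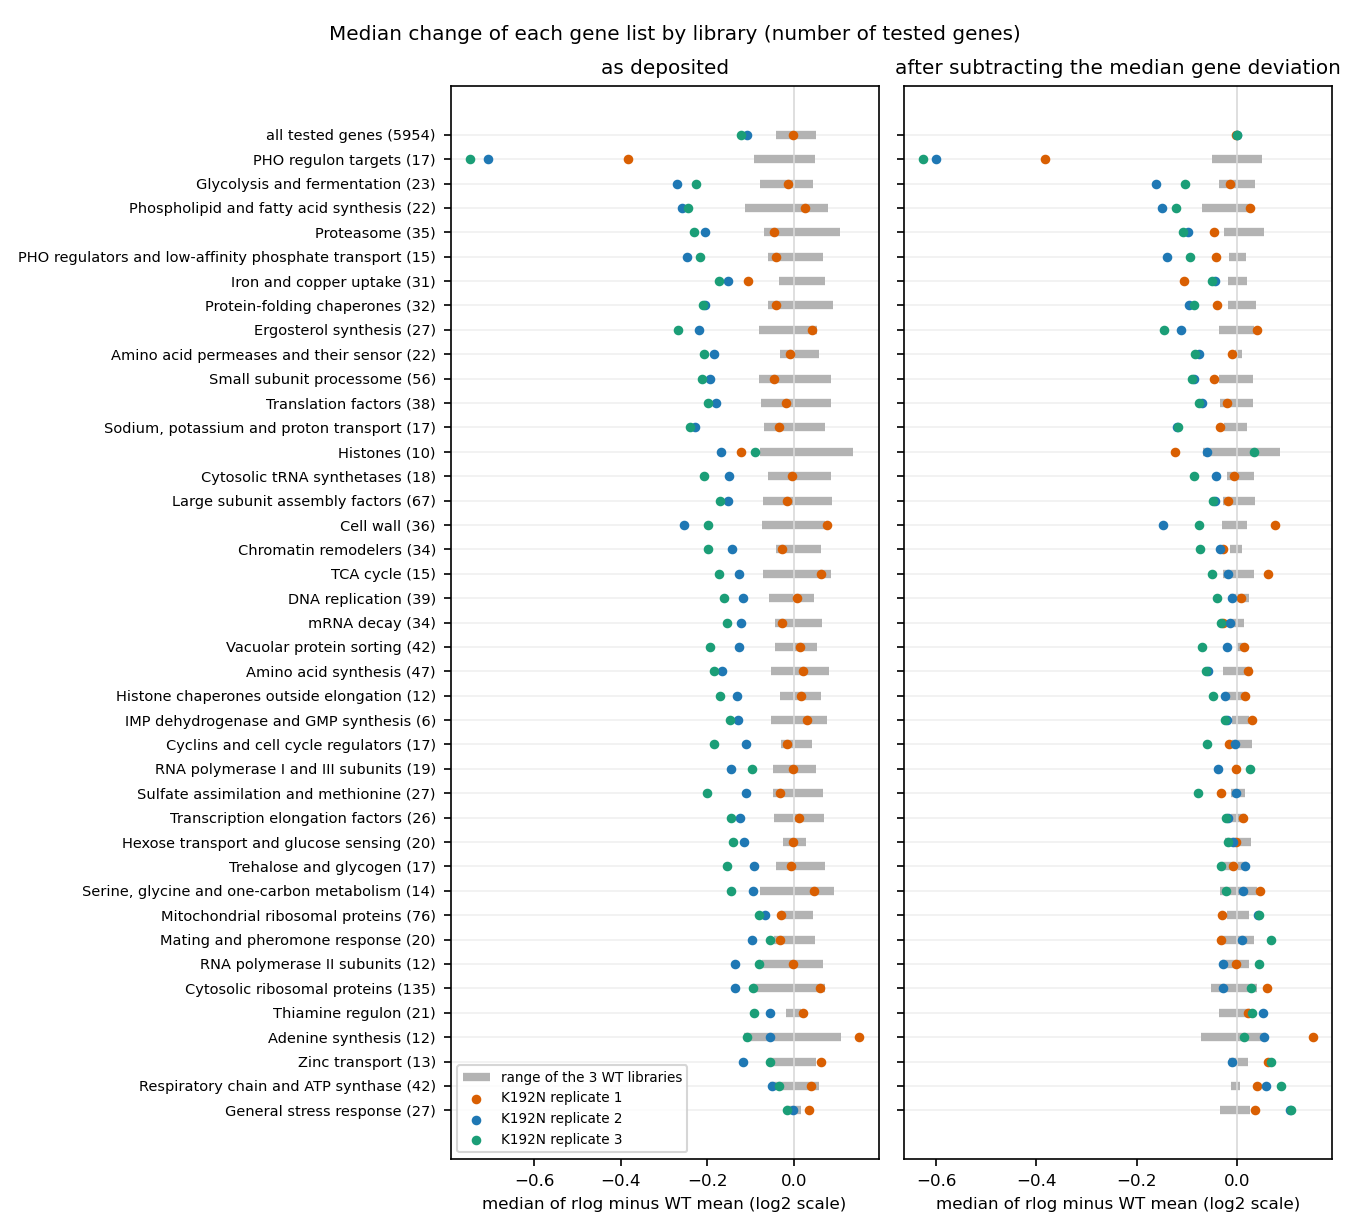
Median over the tested genes of each list of rlog minus the WT mean on a log2 scale, as deposited (left) and after subtracting each library's median gene deviation (right), with a grey bar for the range of the 3 WT libraries and a coloured point for each *spn1 K192N* library. As deposited the medians of replicates 2 and 3 lie below the WT range in 37 and 36 of 40 lists and those of replicate 1 in 3, and on both sides the PHO regulon targets stand apart.

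To ask which genes moved relative to the rest of their library, the median gene deviation of each library was subtracted and the fit repeated. This centred scale had 195 lower genes (3.28% of those tested) and 77 higher genes (1.29%), so that the share of higher genes among the calls was larger than as deposited. On both scales 181 genes were lower and 23 were higher. A further 105 were lower only as deposited and 54 higher only when centred, while 14 were lower only when centred and 1, *YAR073W*, a fragment of an IMP dehydrogenase gene next to *PHO11*, was higher only as deposited.

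The leading groups held on the centred scale. PHO targets kept 12 of 13 falls, all but *PHM6*, with a list median of −0.56 beside 0.00 over all tested genes. Cation transport had the same counts of 5 lower and 1 higher, the cell wall had 7 lower and 3 higher with the addition of *SED1*, a major wall glycoprotein, and sulfur metabolism had 4 lower. Iron and copper uptake dropped from 9 to 5 falls, of which *FET3* had an adjusted p of 0.0489. The processome rose from 1 to 4 falls (*UTP20*, *HCA4*, *PWP2* and *DIP2*), each between −0.16 and −0.21.

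Centring also brought in rises of named metabolic genes. *ADE2*, of purine synthesis, was at 12.13, 11.90 and 11.96 in WT and at 12.32, 12.30 and 12.16 in *spn1 K192N* as deposited, where it missed the threshold (adjusted p = 0.0551), and was 0.34 higher when centred (adjusted p = 0.000741). *ADE12*, the external NADH dehydrogenase *NDE1* and the elongation factor *ELF1* were 0.25, 0.29 and 0.19 higher on the centred scale and were not called as deposited. Over the 40 lists, 39 medians lay below 0 as deposited and 29 when centred, and the lists for the respiratory chain and the general stress response stood at 0.07 and 0.08.

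Long and abundant transcripts fell more than short and scarce ones on the scale as deposited. Among 5565 tested protein-coding genes divided into quartiles of coding length, 2.23%, 4.24%, 4.82% and 8.41% were lower from the shortest (153 to 777 bp) to the longest (1917 to 14733 bp), with medians of −0.04, −0.07, −0.09 and −0.13. This length is the span of the coding region on the chromosome, introns included. By quartile of mean rlog, 2.59%, 4.31%, 6.18% and 6.61% were lower, with medians of −0.02, −0.07, −0.10 and −0.13. In the quartiles that were both highest and longest, 48 of 428 genes fell (11.2%). In the quartiles that were highest and shortest, 4 of 200 fell (2.00%). The WT libraries spread with the mean level too, since the medians of WT replicates 1 and 3 stood at 0.02 and −0.02 in the lowest quartile and at 0.08 and −0.07 in the highest, and the part of the rlog transformation in the trend with level was not tested.

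The trend with length appeared in each mutant library but to unequal extents. From the shortest to the longest quartile the median moved from 0.01 to −0.02 in replicate 1, from −0.07 to −0.16 in replicate 2 and from −0.06 to −0.19 in replicate 3. In WT replicates 1 to 3 it moved from 0.04 to 0.06, from 0.00 to −0.01 and from −0.04 to −0.05. Genes with 2 or more coding exons had 4 falls of 263 (1.52%), and 3 of 174 (1.72%) without the ribosomal protein genes. Genes within 20 kb of a chromosome end had 8 falls (4.47%) and 4 rises (2.23%) of 179. Over all protein-coding genes 4.92% were lower and 0.395% higher. The medians of the 16 chromosomes all lay between −0.09 and −0.07.

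**Figure D4:**
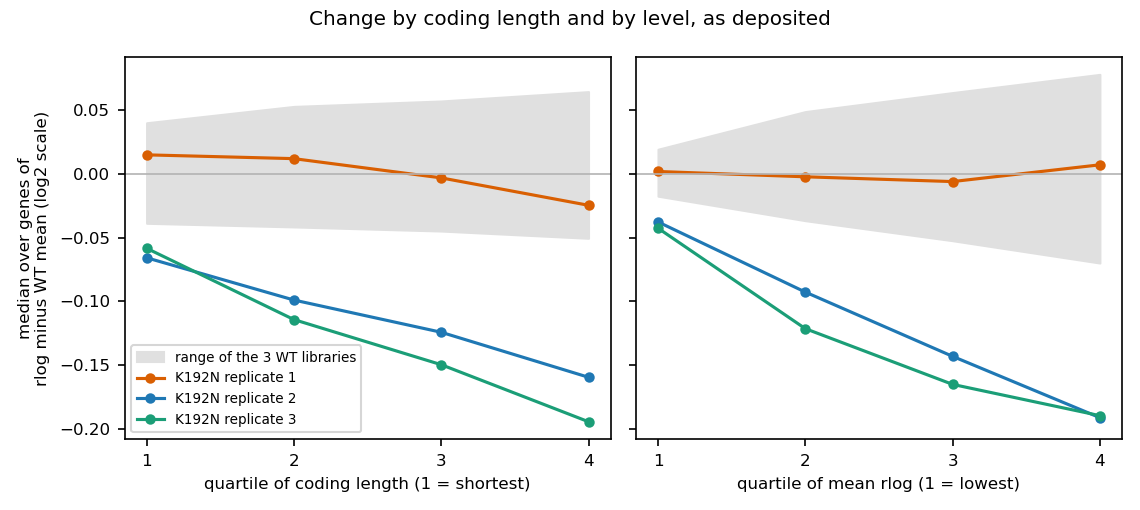
Median over genes of rlog minus the WT mean on a log2 scale, as deposited, by quartile of coding length with introns included (left) and of mean rlog (right), with a line for each *spn1 K192N* library and a grey band for the range of the 3 WT libraries. Replicates 2 and 3 lie below the band in every quartile and replicate 1 lies inside it.

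As deposited, replicate 1 of *spn1 K192N* lay below WT in most of the large falls of the other mutant libraries and in a minority of the small ones. To compare it without using it for the choice, genes were called from replicates 2 and 3 alone. The same 3 WT libraries served for the choice and for the comparison, so that chance deviations in WT enter both. The shares over all tested genes given below are a description and not the value to be found with no change. This gave 2031 lower (34.1%) and 44 higher (0.739%) genes as deposited, and 468 lower (7.86%) and 361 higher (6.06%) genes on the centred scale. All 286 lower genes and 22 of the 24 higher genes of the full comparison were among them.

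Of the 2031 lower genes, replicate 1 lay below all 3 WT libraries in 788 (38.8%), inside their range in 1022 and above it in 221, while over all tested genes it lay below WT in 26.5%. Its median distance from the WT mean in these genes was −0.04, against −0.21 and −0.24 in replicates 2 and 3, which chose them. Of the 44 higher genes, it lay above WT in 37 (84.1%, beside 25.3% of all tested genes) and below WT in none, at a median of 0.25 against 0.19 and 0.23.

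Among the falls called after centring, which are a smaller set of genes, replicate 1 lay below WT more often. It lay below WT in 320 of the 468 lower genes (68.4%, beside 30.4% of all tested genes) at a median of −0.09 against −0.21 and −0.23, and above WT in 180 of the 361 higher genes (49.9%, beside 29.7%) at a median of 0.04 against 0.15 and 0.18. By list, its median lay inside the WT range in 32 of 40 lists as deposited and below it in 3 (PHO targets, histones, and iron and copper uptake), and when centred it lay inside in 15. For the falls the shares followed the size of the change on both scales. Of the genes called lower as deposited without it, replicate 1 lay below WT in 33.0% of those with a fall under 0.25, 48.1% from 0.25 to 0.5, 71.4% from 0.5 to 1 and in all 8 above 1. The 8 fell in replicate 1 by a median of 59.6% of the mean fall in the others. They were the PHO targets *PHO89*, *PHO5*, *PHO84*, *PHO12* and *VTC3*, with *HXT2*, *CMK2* and *ENA2*, so that this class rests largely on the PHO regulon. On the centred scale the shares in the same size classes were 64.6%, 75.4%, 80.0% and all 5, and these 5 fell in replicate 1 by a median of 60.8%. The 5 were *PHO89*, *PHO5*, *PHO84*, *HXT2* and *CMK2*. For the rises there was no steady order, with replicate 1 above WT in 22 of 27, 10 of 11, 4 of 5 and 1 of 1 genes in the same size classes as deposited, and in 140 of 313, 35 of 42, 3 of 4 and 2 of 2 when centred.

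**Figure D5:**
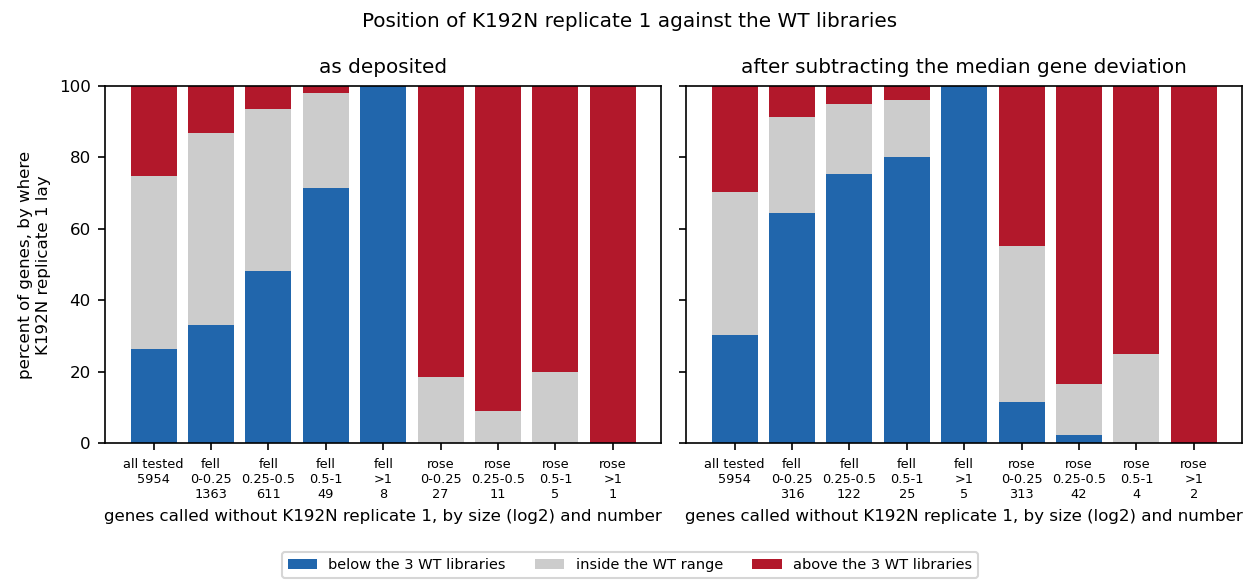
Percent of genes in which *spn1 K192N* replicate 1 lay below, inside or above the range of the 3 WT libraries, for all tested genes and for genes called from replicates 2 and 3 alone, divided by direction and by size of the change (log2), as deposited (left) and centred (right). The share below WT rises from 33.0% to 100% with the size of the fall on the left, and from 64.6% to 100% on the right.

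Single genes show the range of agreement. In *PHO89* and *PHO11* the fall in replicate 1 was 79.3% and 83.7% of the mean fall in replicates 2 and 3, in *PHO84* and *PHO5* 55.9% and 55.4%, and in *CMK2* and *YPS1* 34.1% and 33.6%. In some rises it exceeded the others, with 186% of their mean rise in *YGP1*, 159% in *YRO2* and 124% in *IMD2*. It fell short in *YHR214W* (79.1%), *CHA1* (30.6%) and *SER3* (12.5%). These percentages are as deposited. Over all genes called without it, its median percentage as deposited was 17.5% in falls and 119% in rises. On the centred scale it was 40.9% and 23.4%. Among the genes called without it that lay closest to WT in replicate 1, *TFG1*, a subunit of the transcription factor TFIIF, was at 10.98, 10.82 and 10.82 in WT and at 10.87, 10.66 and 10.59 in *spn1 K192N*, and *NPL6*, a subunit of the remodeler RSC, was at 10.38, 10.26 and 10.25 against 10.29, 10.09 and 10.07. In these the replicate lay inside the WT range. Of the 286 lower genes of the full comparison replicate 1 was nearest to WT in 227, between the others in 30 and farthest in 29, and of the 24 higher genes it was farthest in 16.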

How the data were processed

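Gene expression was analysed from 1 matrix of log2 values, which the authors deposited with a value per gene and library. The authors quantified transcripts with Salmon 1.9 on combined *S. cerevisiae* and *S. pombe* transcripts with automatic library type, estimated size factors on the *S. pombe* genes in DESeq2 1.30.1 (R 4.0.3) and applied its rlog function. The authors' 3 comparison tables (mean scaled counts, log2 fold changes, standard errors, p-values) were not used, and 0 columns had no sample.

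Libraries were grouped by their labels. Differences were tested with limma 3.58.1 in R 4.3.3 in 1 fit of the 9 RNA-seq libraries with 1 mean for each genotype and a trended eBayes prior, two-sided, with Benjamini-Hochberg adjustment over 5954 genes, and called at adjusted p below 0.05. The fit was repeated after centring. Errors are SE from this fit with 3 libraries per group. Steps were tested on simulated data. Tables were handled in Python 3.11.15 with numpy 2.4.6, pandas 2.3.3 and matplotlib 3.10.9. Names, coding lengths (introns included) and windows of 500 bases came from the RefSeq R64 annotation, to which 5896 identifiers matched, 5565 of them tested.

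The comparison and the 41 gene lists were chosen with earlier results of these data known. All 29 genes on the mitochondrial genome list were under the filter, which left 40. Genes were named by a rule: *SPN1* and strain markers, the 15 largest falls and 10 largest rises without overlap as deposited, the 10 largest centred rises, up to 4 called genes per list, and 5 falls and 5 rises in which replicate 1 lay closest to WT. Further list members, paralogs, *SRG1* and *YAR073W* were named after their values were seen. Alternatives covered scaling, filter, prior variance, libraries in the fit, the replicate block and each library left out. The counting error cannot be given from these values.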

Additional observations from a re-analysis of the deposited data

How the results depend on the processing

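The counts of calls depended on the libraries and scaling, while no named gene changed sign between settings where it was called (1104 values stayed on their side of the threshold, 221 lost a call and 58 gained one). Among genes not called, *HIS3* was at −0.05 without K192N replicate 1, and *GIT1*, *GDE1* and *IMD4* stood at 0.04, 0.02 and 0.03 when centred. As deposited, the main counts were 286 lower and 24 higher genes. Centring on the median or the mean gene gave 195 and 77 or 177 and 88, a prior variance without a trend 159 and 14, and the replicate block 469 and 32. With each library left out in turn, the lower genes numbered 50 to 2031 and the higher genes 12 to 44, with the extremes without WT replicate 1 and without K192N replicate 1. On the centred scale (195 and 77), quantile normalization gave 125 lower genes, and leaving out a library gave 68 to 468 lower and 32 to 361 higher. Whether replicate numbers pair the cultures was not settled. Residual correlations between same-numbered WT and K192N libraries were 0.21, −0.18 and 0.25. The median gene deviation fell from replicate 1 to 3 in both genotypes (0.11, 0.05 and 0.02 in WT, 0.06, −0.05 and −0.06 in K192N). On the centred scale the block gave 185 and 71 calls. The difference of library medians kept its direction, between −0.05 and −0.12 with a library left out and −0.08 with means over genes. Of the list counts and medians, 846 values stayed within the limit for a change and 274 did not. Values came without counts, so that no pseudocount applied and the limits of depth are unknown. The cause of these differences was not tested.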

Other observations

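A further group, written down after the values were seen and with all its listed members kept, is given as values only. Of 14 genes of calcineurin signalling and targets of its transcription factor Crz1, 8 were lower and none higher on both scales, with a median of −0.35. Over all tested genes 4.80% were lower as deposited and 3.28% when centred. Because the list was drawn up from the same values, these shares are no test of whether the group fell. The calcineurin regulator *RCN2* was at 9.27, 9.16 and 9.14 in WT and at 8.92, 8.72 and 8.85 in *spn1 K192N*, and the phospholipase gene *PLB1* was at 12.61, 12.49 and 12.22 against 12.45, 11.69 and 11.70. *CRZ1* itself (−0.07) and the calcineurin subunits *CNA1* (−0.06), *CMP2* (−0.22) and *CNB1* (−0.11) were not called. By library the medians were −0.13, −0.49 and −0.37 in *spn1 K192N* replicates 1 to 3, so that replicate 1 was the highest mutant library in 12 of the 14 genes.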
